A study of Mus musculus with 12 samples.

Results

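Regulatory T cells (Tregs) of perigonadal adipose tissue were compared with Tregs of the spleen in control mice, on 6 of the 12 Illumina mouse bead arrays of the study. The 6 arrays were chosen by their titles, 3 labelled PG Fat Control Chow and 3 labelled Spleen Control Chow. Per the labels these mice were C57BL/6, ate chow and carried Foxp3-YFP-Cre, a Cre recombinase joined to a yellow fluorescent protein and driven by Foxp3, with no floxed allele listed. The other 6 arrays hold spleen and fat Tregs of mice that carried the same Cre with Tbx21-flox and were labelled Tbet KO. By that design the Cre removes Tbx21, the gene for the transcription factor T-bet, from Foxp3-expressing cells. The 2 control groups therefore share strain, diet and Cre allele and differ in the tissue. On every slide the spleen control lay at position A and the fat control at position C, so tissue and position on the slide cannot be told apart. The labels give no age, no sex, no number of animals behind an array and no purity of the cells. Nothing in the labels says that arrays of a group came from separate animals, so the p-values measure only how far these samples spread, and that spread may be technical.

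Tregs are CD4 T cells that hold back other immune cells, and Foxp3 is the transcription factor that defines them. Many Tregs of the spleen are resting cells that circulate between blood and lymphoid organs. Tregs of visceral fat are a settled population known for the nuclear receptor Pparg, for the receptor of interleukin 33, for lipid uptake and for type 2 cytokines, which are the messengers that act on eosinophils, mast cells and macrophages. The comparison asks which genes set the fat population apart from the splenic one when T-bet is intact.

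On the control arrays 31.3 to 40.9% of the 45281 probes were detected, and 8798 genes were tested, each through 1 probe. Values are normalized intensities on the log2 scale, on which a difference of 1.00 is a doubling. The lowest signal that counted as detected lay between 4.81 and 5.20, so values near 4.5 are background. Across genes, spleen arrays correlated with each other at 0.871 to 0.903, fat arrays at 0.765 to 0.836 and arrays of different tissues at 0.692 to 0.793. The first principal component, with 45.5% of the variance, parted the tissues, and the second, with 22.4%, parted fat array 2 from fat array 3. Fat arrays thus varied more among themselves than spleen arrays, and the median standard deviation (SD) of a gene was 0.57 in fat and 0.45 in spleen.

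The labelled cell type was checked against its markers. Of 12 listed T cell markers 11 were measured, and their summed linear intensity ran from 12908 to 15065 in spleen and from 9959 to 11295 in fat, so the groups did not overlap. None of the 11 was called higher and 1 was called lower, Trat1, an adaptor of the T cell receptor (−2.34, adjusted p 0.0169), which lost its call without spleen array 1 (0.0744). Trat1 also lost its call with median scaling, the mean of its probes and a fit of the 6 control arrays alone. Foxp3 read 6.998, 7.82 and 8.29 in spleen and 8.49, 7.17 and 8.95 in fat. The Foxp3 values of the 2 tissues overlap, and the difference of 0.50 (SE 0.67, n = 3 per group, limma adjusted p 0.712) did not pass. Its 2 other probes differed by 0.28 and −0.95 and did not pass either. Tbx21 read 4.54, 4.87 and 5.18 in spleen and 5.48, 7.24 and 5.16 in fat, was detected in 2 arrays of each tissue, and did not pass (+1.10, SE 0.67, adjusted p 0.371).

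Fat and spleen Tregs differed in 685 of the 8798 genes (7.79%) at a Benjamini-Hochberg adjusted p below 0.05 in limma. Of these, 384 genes (4.36%) were higher in fat and 301 (3.42%) were lower, and 1971 genes had an unadjusted p below 0.05. The higher genes moved further: 49 rose by more than 4 on the log2 scale and 3 fell by as much. No called gene differed by less than 1.00. In 681 of the 685 the values of the 2 tissues did not overlap, which held for 27.0% of all genes tested (11.3% with fat higher and 15.8% with fat lower). Of the higher genes 60 were detected on no spleen array, and of the lower genes 38 were detected on no fat array. Such genes passed the detection filter through the other tissue alone, which fixes the sign of their difference. Detection here counts any probe of a gene. The tested probes of Dab2 and Vegfa were detected on no spleen array, and those of Izumo1r and Smim8 on no fat array. Their signs are fixed in the same way, though they are not in these counts. The median difference of all genes was −0.11, and it became −0.0014 with cyclic loess and +0.02 with median scaling, under which 68.0% and 73.3% of calls were higher in place of 56.1%. In these bulk samples fewer cells that express a gene and less RNA per cell cannot be told apart.

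**Figure D1:**
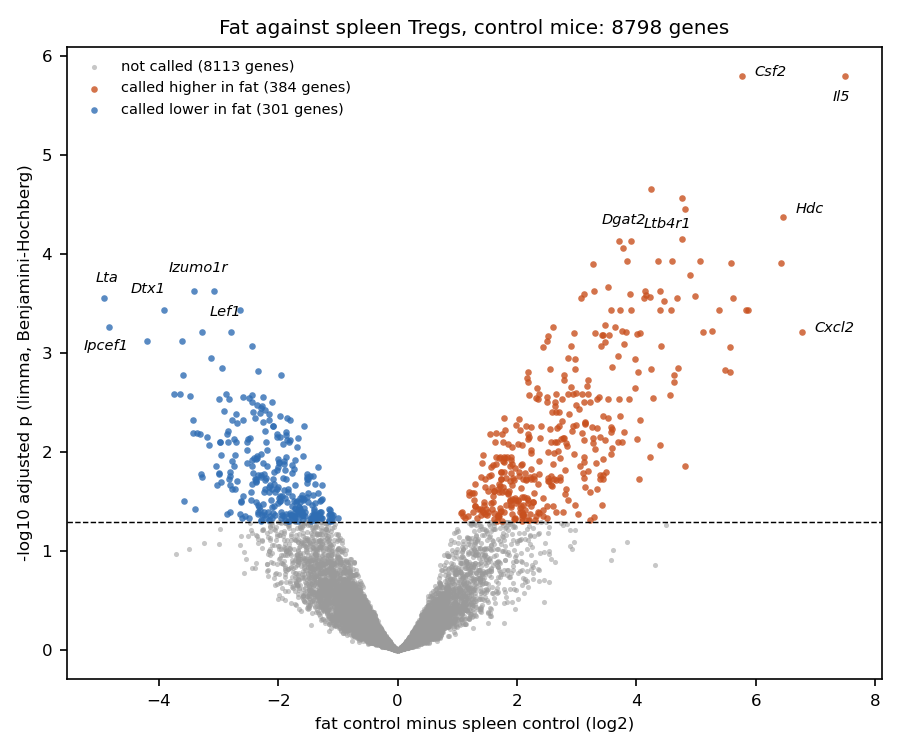
Difference between fat and spleen controls (horizontal axis, log2) against the limma adjusted p (vertical axis, −log10) for the 8798 genes tested, with the dashed line at an adjusted p of 0.05. The 384 genes called higher in fat reach further from 0 than the 301 called lower, with Il5 at +7.49 and Lta at −4.92.

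The 15 largest rises were led by secreted proteins. Il5, the cytokine that drives eosinophils, read 4.35, 4.42 and 4.48 in spleen and 11.99, 12.49 and 11.25 in fat. It was detected on all 3 fat arrays and on no spleen array, so the rise (+7.49, SE 0.41, limma adjusted p 1.57e-06) is at least 129-fold, where the bound sets the fat mean against the dimmest signal still detected in spleen. Cxcl2, a chemokine that attracts neutrophils, read 4.68, 4.62 and 6.49 in spleen and 11.96, 11.48 and 12.65 in fat. All fat values lie far above all spleen values, and among the spleen arrays only array 3 had a detected signal (+6.77, SE 0.85, adjusted p 0.000614). Hdc, the enzyme that makes histamine, read 5.97, 5.62 and 5.35 in spleen and 12.11, 12.52 and 11.70 in fat (+6.46, SE 0.51, adjusted p 4.21e-05). Hdc was detected on all 6 arrays, so its splenic level is a measured one. The other members of the 15 were the chemokines Cxcl1 (+6.42, at least 73.5-fold), Ccl7 (+5.83, at least 45.2-fold) and Ccl9 (+5.12, at least 26.7-fold), and the growth factor Csf2 (+5.77, at least 40.9-fold). Beside these stood the transcription factors Fosl2 (+5.86) and Crem (+5.61), the stress response gene Ier3 (+5.59) and the nucleotide receptor P2ry6 (+5.57). The 15 also hold Clec10a (+5.57), a lectin of dendritic cells and macrophages, Retnla (+5.48, at least 32.8-fold), a secreted product of alternatively activated macrophages, the endocytic adaptor Dab2 (+5.38) and the membrane protein Emp1 (+5.27). For Dab2 the call was lost without fat array 2 (adjusted p 0.0504), where another of its probes was read.

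The 15 largest falls were led by Lta, the cytokine lymphotoxin alpha, which shapes lymphoid tissue. It read 9.86, 9.46 and 9.51 in spleen and 5.06, 4.37 and 4.63 in fat, where only array 1 had a detected signal (−4.92, SE 0.54, adjusted p 0.000279). Another Lta probe differed by −0.84 and did not pass. Ipcef1, which interacts with cytohesin exchange factors, read 10.96, 10.79 and 10.62 in spleen and 6.42, 4.46 and 6.98 in fat (−4.84, SE 0.59, adjusted p 0.000545). Ifit1bl1, of the interferon-induced IFIT family, read 9.48, 10.20 and 8.42 in spleen and 5.89, 4.59 and 5.01 in fat (−4.20, SE 0.55, adjusted p 0.000756). For Lta, Ipcef1 and Ifit1bl1 alike the lowest spleen value stands above the highest fat value by more than the spread within either tissue. Next came Dtx1 (−3.91), a ubiquitin ligase of the Notch pathway, Ly6k (−3.64, at least 8.52-fold lower), the methyltransferase gene Eef1akmt1 (−3.60) and the orphan receptor Gpr83 (−3.60, at least 8.44-fold lower). The remainder were Trim59 (−3.58), the mitochondrial protein gene Chchd10 (−3.47), the interferon-inducible Ifi213 (−3.42), Smim8 (−3.42), the folate receptor family member Izumo1r (−3.42), Osbpl5 (−3.40), Mcat (−3.35), an enzyme of mitochondrial fatty acid synthesis, and Fsd2 (−3.30). The call of Trim59 was lost on leaving out any 1 control array but fat array 1 (adjusted p 0.0595 to 0.109), and so was that of Osbpl5 (0.0714 to 0.12). Izumo1r lost its call without spleen array 1, 2 or 3 (0.0987 to 0.412) where another of its probes was then read, and kept it with its own probe.

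**Figure D2:**
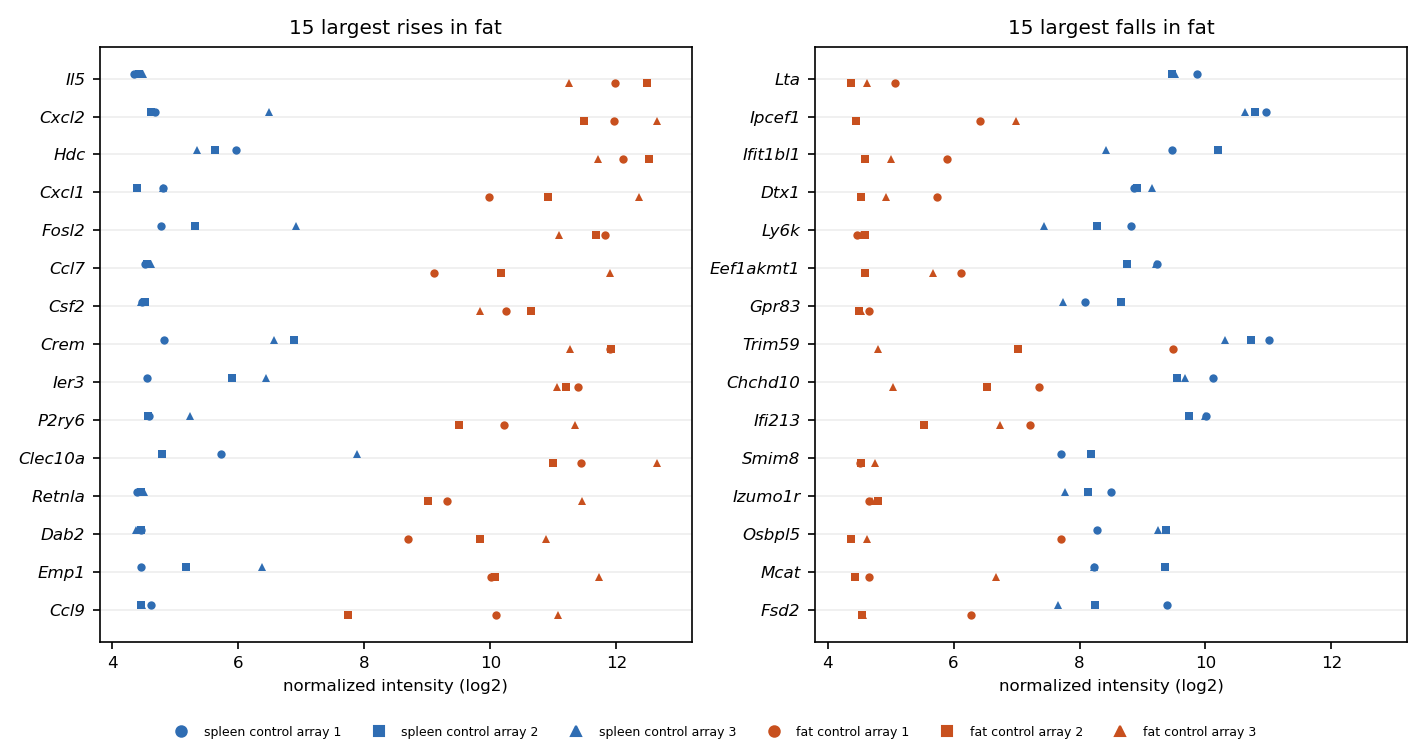
Normalized intensity (log2) on each of the 3 spleen and 3 fat control arrays for the 15 largest rises (left) and the 15 largest falls (right). In all 30 genes the spleen values and the fat values do not overlap, and among the rises fat array 3 is the highest fat array for Cxcl2, Cxcl1, Ccl7, P2ry6, Clec10a, Retnla, Dab2, Emp1 and Ccl9.

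The promoters of the 3 genes at the head of each direction are shown because the largest changes of the comparison sit behind them. Each runs from 250 bases before to 50 bases after the transcription start in RefSeq annotation of GRCm38.p6, written 5′ to 3′ along the gene. Of the 3 starts listed for Ipcef1 and the 2 listed for Ifit1bl1 the first was taken. Capitals mark any match, on either strand, to a GATA word (AGATAA or TGATAA, or either with G as the last letter), an AP-1 word (TGANTCA), a CRE word (TGACGTCA) or an interferon element word (GAAANNGAA). Il5 lies on the plus strand at chr11:53720544-53720843, Cxcl2 on the plus strand at chr5:90903649-90903948 and Hdc on the minus strand at chr2:126618629-126618928. Lta lies on the minus strand at chr17:35205302-35205601, Ipcef1 on the minus strand at chr10:6980232-6980531 and Ifit1bl1 on the minus strand at chr19:34601919-34602218.
Il5: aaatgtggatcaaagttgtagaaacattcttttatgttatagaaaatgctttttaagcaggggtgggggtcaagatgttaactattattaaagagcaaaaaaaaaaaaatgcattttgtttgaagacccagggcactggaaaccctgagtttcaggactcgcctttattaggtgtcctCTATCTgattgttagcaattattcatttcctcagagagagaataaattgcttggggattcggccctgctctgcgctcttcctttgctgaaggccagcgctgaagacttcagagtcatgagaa
Cxcl2: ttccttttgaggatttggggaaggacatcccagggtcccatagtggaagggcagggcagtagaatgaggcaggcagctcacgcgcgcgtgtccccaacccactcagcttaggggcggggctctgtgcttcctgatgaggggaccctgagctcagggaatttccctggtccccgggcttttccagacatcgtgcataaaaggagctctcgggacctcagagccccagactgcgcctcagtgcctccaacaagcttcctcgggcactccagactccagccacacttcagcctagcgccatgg
Hdc: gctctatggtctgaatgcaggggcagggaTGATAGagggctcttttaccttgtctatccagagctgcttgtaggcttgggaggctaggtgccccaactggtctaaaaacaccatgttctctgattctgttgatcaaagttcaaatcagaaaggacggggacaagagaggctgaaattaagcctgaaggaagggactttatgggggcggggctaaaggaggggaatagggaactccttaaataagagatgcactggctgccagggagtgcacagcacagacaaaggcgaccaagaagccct
Lta: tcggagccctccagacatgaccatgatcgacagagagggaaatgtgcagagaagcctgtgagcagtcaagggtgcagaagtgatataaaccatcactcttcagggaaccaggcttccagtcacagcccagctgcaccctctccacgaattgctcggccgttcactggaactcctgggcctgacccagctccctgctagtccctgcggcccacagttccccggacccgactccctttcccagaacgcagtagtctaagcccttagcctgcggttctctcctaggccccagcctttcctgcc
Ipcef1: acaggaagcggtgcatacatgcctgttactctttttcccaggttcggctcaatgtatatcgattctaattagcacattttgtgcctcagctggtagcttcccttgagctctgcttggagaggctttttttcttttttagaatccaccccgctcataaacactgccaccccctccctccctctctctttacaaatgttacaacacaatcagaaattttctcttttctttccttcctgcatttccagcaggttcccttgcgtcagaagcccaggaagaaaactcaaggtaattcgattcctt
Ifit1bl1: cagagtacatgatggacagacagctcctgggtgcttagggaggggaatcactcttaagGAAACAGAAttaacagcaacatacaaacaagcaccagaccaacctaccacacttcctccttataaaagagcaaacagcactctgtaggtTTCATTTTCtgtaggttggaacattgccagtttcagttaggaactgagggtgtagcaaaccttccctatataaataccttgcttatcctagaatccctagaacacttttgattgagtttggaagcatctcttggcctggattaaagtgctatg
Counted from the start, Il5 held 1 GATA word at −72, Hdc held 1 at −221, and Ifit1bl1 held 2 interferon element words at −192 and −103. Cxcl2, Lta and Ipcef1 held none of the words in these windows. Over the 5713 tested genes with a single listed start, the AP-1 word was in 10.4% of the 241 promoters of genes called higher, 4.95% of the 182 promoters of genes called lower and 4.62% of all. For the GATA words the shares were 22.8%, 20.3% and 18.8%, for the CRE word 3.73%, 2.75% and 3.55%, and for the interferon element word 8.71%, 9.89% and 7.49%. In all 22862 promoters with a single start the AP-1 word was in 7.98%, the GATA words in 30.7%, the CRE word in 1.85% and the interferon element word in 8.62%. These are shares of promoters that hold any match to the word, given as a description with no test.

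Type 2 cytokines and their machinery were higher in fat. Of 10 measured genes of the 14 listed, 7 were called higher and none lower, against 4.36% and 3.42% of all genes, with a median difference of +2.77 beside −0.11 for all genes. Those shares of all genes are the base for the counts of every list below. Of the 10 genes, 2 were detected on no spleen array, which fixes the sign of their difference. Il13, a cytokine from the same gene cluster as Il5, read 4.55, 4.63 and 4.96 in spleen and 7.97, 8.85 and 8.64 in fat (+3.77, SE 0.34, limma adjusted p 8.66e-05). Gata3, the transcription factor of the type 2 programme, read 6.25, 5.95 and 7.11 in spleen and 9.35, 9.78 and 8.99 in fat (+2.93, SE 0.45, adjusted p 0.00255). Csf2, which supports myeloid cells, stayed between 4.45 and 4.51 in spleen and lay between 9.84 and 10.65 in fat. In each of these genes the arrays of a tissue stood close together and the 2 tissues far apart. The chemokine receptors Ccr8 (+2.61) and Ccr4 (+2.36) rose as well, with fat array 3 lowest for both. Ccr8 lost its call without spleen array 1 (adjusted p 0.0568), and Ccr4 without any 1 control array but fat array 3 (0.0826 to 0.134). In all, Ccr4 lost its call in 16 of 24 alternatives, among them the deposited normalized table and the 6 control arrays alone. Il4, the founding cytokine of the group, was high only on fat array 2, with 5.42, 4.80 and 5.27 in spleen and 5.54, 9.18 and 4.81 in fat, and did not pass. On fat array 2 the list was also highest for 9 of its 10 genes.

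The genes known from adipose Tregs formed the list with the largest median among those with 10 or more measured members. Of 18 measured genes of 24 listed, 14 were called higher and none lower, with a median of +3.78, and 1 of the 18 was detected on no spleen array. Pparg, the nuclear receptor of this population, read 5.02, 6.64 and 4.47 in spleen and 8.48, 8.01 and 8.26 in fat (+2.87, SE 0.49, limma adjusted p 0.00413). Klrg1, a receptor of differentiated T cells, read 8.36, 8.79 and 7.85 in spleen and 11.32, 10.60 and 10.73 in fat (+2.55, SE 0.36, adjusted p 0.00143). The fat values of both genes lay within 1 unit of each other and above every spleen value. Cxcr6 (+3.97), a chemokine receptor of tissue lymphocytes, Rora (+3.91), a nuclear receptor, and Itgav (+3.85), the alpha V chain of integrins, rose with them. Itgav lost its call without fat array 3 (adjusted p 0.212), where another of its probes was then read, and its 4 other probes (+0.78 to +1.59) did not pass. Batf and Irf4, which drive the differentiation of these cells, differed by 0.58 and 0.75 and did not pass. Il1rl1, the receptor of interleukin 33, was not analysed here.

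Genes of lipid uptake and storage rose in part. Of 18 measured genes of 26 listed, 7 were called higher and 1 lower, with a median of +1.23. Dgat1, which makes triglycerides, read 4.59, 4.43 and 5.22 in spleen and 9.86, 9.93 and 9.64 in fat (+5.06, SE 0.48, limma adjusted p 0.000116), and Dgat2, which catalyses the same step, rose by 3.70 (SE 0.32, adjusted p 7.32e-05). Lpl, which frees fatty acids from lipoproteins, read 4.62, 4.55 and 4.96 in spleen and 9.33, 8.81 and 9.15 in fat (+4.39, SE 0.46). These 3 genes were near background in spleen and even across the fat arrays. Cd36, a fatty acid transporter (+4.90, at least 24.0-fold), Apoe, a lipoprotein (+3.82), and Plin2, a coat protein of lipid droplets, rose too, while Plin3, another such coat protein, was called lower (−2.11) and lost its call without any 1 control array but fat array 3 (0.0594 to 0.127). Cd36 and Apoe were highest on fat array 3 (10.76 and 9.98) and lowest on fat array 2 (8.47 and 8.59). Fabp4, a fatty acid carrier of adipocytes and macrophages, read 4.36, 4.41 and 4.84 in spleen and 9.60, 11.36 and 7.09 in fat (+4.81, SE 1.02, adjusted p 0.0138), and lost its call without spleen array 1 (0.0567) or 2 (0.0507). Its call was also lost with no background correction, the deposited normalized table and no filter on dim probes. The fat arrays differed more for Fabp4 than for any other lipid gene named here, with array 2 high and array 3 low. Of the other adipocyte markers listed, 8 were below the detection filter, and 6 of these, among them Adipoq, Plin1 and Cidec, were detected on no control array. Of 17 measured genes of mitochondrial fatty acid oxidation 1 was called higher and 1 lower, against 4.36% and 3.42% of all genes, with a median of −0.05. The fall was in Acadm (−2.34, at least 3.55-fold lower, adjusted p 0.00152), a dehydrogenase of medium-chain fatty acids. The rise was in Etfdh (+1.72, adjusted p 0.0399), which passes electrons to the respiratory chain, and its call was lost without spleen array 1 or 2 or fat array 1 or 2 (0.0759 to 0.164).

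Transcription factors of effector T cells were higher in fat, with 9 of 19 measured genes called higher, none lower and a median of +2.22. Zeb2, a repressor of terminally differentiated T cells that macrophages also express, read 4.42, 4.64 and 5.21 in spleen and 8.71, 8.20 and 9.84 in fat (+4.16, SE 0.45, limma adjusted p 0.000256). Id2, which restrains E proteins, read 9.49, 9.43 and 8.48 in spleen and 12.32, 12.31 and 10.78 in fat (+2.67, SE 0.51, adjusted p 0.00789). Spleen and fat values of both genes are apart, with array 3 the highest fat array for Zeb2 and the lowest for Id2. Nr4a3, an orphan nuclear receptor (+3.12), Prdm1, which encodes Blimp-1 (+2.56), Hif1a, the oxygen sensor's transcription factor (+2.01), and Nr4a2, a relative of Nr4a3 (+3.43), rose too. Nr4a2 lost its call without spleen array 1 (adjusted p 0.0813) or 2 (0.0755) or fat array 2 (0.0529), Prdm1 without spleen array 1 (0.0675), and Hif1a without any 1 control array but fat array 2 (0.0675 to 0.0998). Prdm1 also lost its call with no background correction, the deposited normalized table and no filter on dim probes. Other Hif1a probes differed by +2.09, which passed, and by −0.23, which did not. Ikzf3 (+1.08), Eomes (+0.28) and Myb (−0.73) did not pass.

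Molecules by which Tregs restrain other cells moved unevenly, with 7 of 18 measured genes called higher, 1 called lower and a median of +0.98. Of the 18, 1 was detected on no spleen array, which fixes the sign of its difference. Fgl2, a secreted suppressor of T cells, read 5.05, 5.94 and 4.95 in spleen and 9.54, 9.25 and 8.82 in fat (+3.89, SE 0.41, limma adjusted p 0.000248). Il10, a suppressive cytokine, read 4.54, 5.33 and 7.94 in spleen and 10.13, 9.78 and 10.58 in fat (+4.22, SE 0.86, adjusted p 0.0112). Fgl2 was even within each tissue, whereas Il10 was raised on spleen array 3 alone among the spleen arrays. Il10 lost its call without spleen array 1 (0.0569) or 2 (0.0513), and Tgfb1, a suppressive growth factor (+2.07), without spleen array 2 (0.0615). Furin, which processes TGF-beta (+4.56), the lectins Lgals3 (+3.58) and Lgals1 (+1.07), and the protease Gzmb (+1.46) rose as well. Lgals1 lost its call on leaving out any 1 control array (0.0575 to 0.149), and Gzmb without spleen array 1 (0.089) or 2 (0.0796). Cd200, a ligand that calms myeloid cells, read 9.90, 9.43 and 9.38 in spleen and 7.69, 4.47 and 6.68 in fat (−3.29, SE 0.72, adjusted p 0.0165), and lost its call without spleen array 1 (0.0707) or 2 (0.0506). The checkpoint receptors did not pass: Ctla4 differed by 0.76 (adjusted p 0.316), Tigit by 1.27 (0.0501), Pdcd1 by 0.97 (0.24) and Havcr2 by 0.44 (0.699). Tigit passed under 8 of the other processing settings and without spleen array 1 (0.0388).

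Of the 16 measured genes of Treg identity, none was called higher and 2, Gpr83 and Izumo1r, were called lower, with a median of +0.24. Over all genes 4.36% were called higher and 3.42% lower. Gpr83 stayed between 7.74 and 8.66 in spleen and between 4.50 and 4.66 in fat, where it was detected on no array. Another Gpr83 probe differed by −1.05 and did not pass. Il2ra, the high-affinity receptor chain for interleukin 2, read 5.46, 6.25 and 6.70 in spleen and 7.50, 8.05 and 6.81 in fat, without overlap, and missed the threshold (+1.32, SE 0.40, limma adjusted p 0.0689), which it passed without fat array 3 (0.044). Ikzf2 (−0.82) and Nrp1 (−0.72), known from Tregs of thymic origin, Tnfrsf4 (+0.98, adjusted p 0.0642) and Tnfrsf18 (+0.67) did not pass, and Tnfrsf4 passed under 8 of 24 alternatives (lowest adjusted p 0.0106).

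Chemokine ligands were higher in fat, with 9 of 15 measured genes called higher, none lower, and a median of +2.89. Of the 15, 6 were detected on no spleen array and so passed the detection filter through the fat arrays alone, which fixes the sign of their difference. Cxcl1, a neutrophil attractant, read 4.80, 4.40 and 4.81 in spleen and 9.99, 10.92 and 12.37 in fat, and Ccl7, a monocyte attractant, read 4.51, 4.55 and 4.62 in spleen and 9.10, 10.18 and 11.89 in fat. Both were detected on no spleen array and were highest on fat array 3. Ccl2, the main monocyte attractant, followed the same order of arrays with 7.01, 7.17 and 10.03 in fat (+3.57, at least 9.05-fold), and lost its call with no background correction (adjusted p 0.0594). Ccl1, the ligand of Ccr8, differed from them in being even across the fat arrays at 7.67, 7.94 and 7.53 (+2.51, SE 0.33, limma adjusted p 0.000756). Cxcl3 (+3.59), Ccl6 (+2.20) and Ccl24 (+1.94), an eosinophil attractant, completed the 9 with Cxcl2 and Ccl9, and Ccl24 lost its call without spleen array 1 (0.0708) or 2 (0.0667). Over the list, fat array 3 was the highest fat array for 11 of 15 genes. Among chemoattractant receptors 4 of 14 were called higher and none lower (median +0.36), among them Ltb4r1, the leukotriene B4 receptor, with 4.82, 4.68 and 4.56 in spleen and 8.69, 8.44 and 8.67 in fat (+3.91, at least 13.1-fold). Ltb4r1, like Ccl1, varied little between the fat arrays.

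Macrophage and monocyte markers were also higher in fat. Of 14 measured markers of 18 listed, 8 were called higher and none lower, with a median of +2.82. Of the 14, 2 were detected on no spleen array, which fixes the sign of their difference. Their summed linear intensity ran from 490.0 to 2214 in spleen and from 7243 to 21798 in fat. Cd163, a scavenger receptor of tissue macrophages, read 4.53, 6.05 and 7.49 in spleen and 9.39, 10.35 and 11.54 in fat (+4.40, SE 0.85, limma adjusted p 0.00839). Mrc1, the mannose receptor, read 4.53, 4.64 and 5.56 in spleen and 8.52, 7.37 and 10.10 in fat (+3.76, SE 0.72, adjusted p 0.0078). The tissues do not overlap in either gene, and the fat arrays span more than 2 units. The lysozymes Lyz1 (+4.01) and Lyz2 (+4.07) rose, as did Cd14 (+2.99), Ms4a7 (+2.66), Apoe and C1qb (+3.39), and C1qb lost its call without spleen array 1 (0.077) or fat array 3 (0.0675). Adgre1 and Csf1r, which define macrophages, overlapped between the tissues: Adgre1 read 5.37, 7.93 and 7.54 in spleen and 9.11, 5.64 and 10.73 in fat, and Csf1r 4.50, 5.01 and 5.43 in spleen and 6.05, 4.53 and 8.09 in fat. Neither passed, and Adgre1 passed without fat array 2 (0.039). Fat array 3 was the highest fat array for all 14 markers, and fat array 2 the lowest for 11 of them.

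Fat array 3 stood highest more often in some gene groups than in others. Fat array 3 was the highest for 40.4% of the 384 genes called higher, 34.5% of all genes tested, all 13 genes of antigen presentation by MHC class II and 11 of 15 chemokine ligands. It was the highest for 3 of the 18 adipose Treg genes and for none of the 10 type 2 genes. Fat array 2 was the lowest for 37.3% of all genes tested. For the class II genes that count was 10 of 13 and for the chemokine ligands 8 of 15. For the adipose Treg genes it was 11 of 18, and for the type 2 genes 1 of 10. Of the MHC class II genes 4 were called higher and 1 lower, with a median of +1.35. H2-Eb1, a class II chain, read 5.55, 6.67 and 6.82 in spleen and 9.95, 11.16 and 11.16 in fat (+4.41, SE 0.59, limma adjusted p 0.000843), and was the one class II gene of the 5 whose call held in every alternative. H2-Aa (+3.50), H2-Ab1 (+3.33) and Cd74 (+3.29), the invariant chain, lost their calls without spleen array 1 (0.0741, 0.106 and 0.176), spleen array 2 (0.0562, 0.0792 and 0.113) or fat array 3 (0.0592, 0.0797 and 0.15), and H2-Ab1 and Cd74 also without fat array 1 (0.06 and 0.102). H2-Ob, known from B cells, was called lower (−2.30, adjusted p 0.0493), with overlapping tissues, and lost its call without spleen array 1 or 2 or fat array 1 or 2 (0.136 to 0.171). The macrophage markers, the class II genes, most chemokine ligands, Cd36, Apoe, Clec10a and Retnla were thus highest on fat array 3. Fat array 2 was the lowest for 11 of the 14 macrophage markers, 10 of the 13 class II genes and 8 of the 15 chemokine ligands. It was also the lowest for Cd36, Apoe, Clec10a and Retnla. What part macrophages had in these results was not tested.

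**Figure D3:**
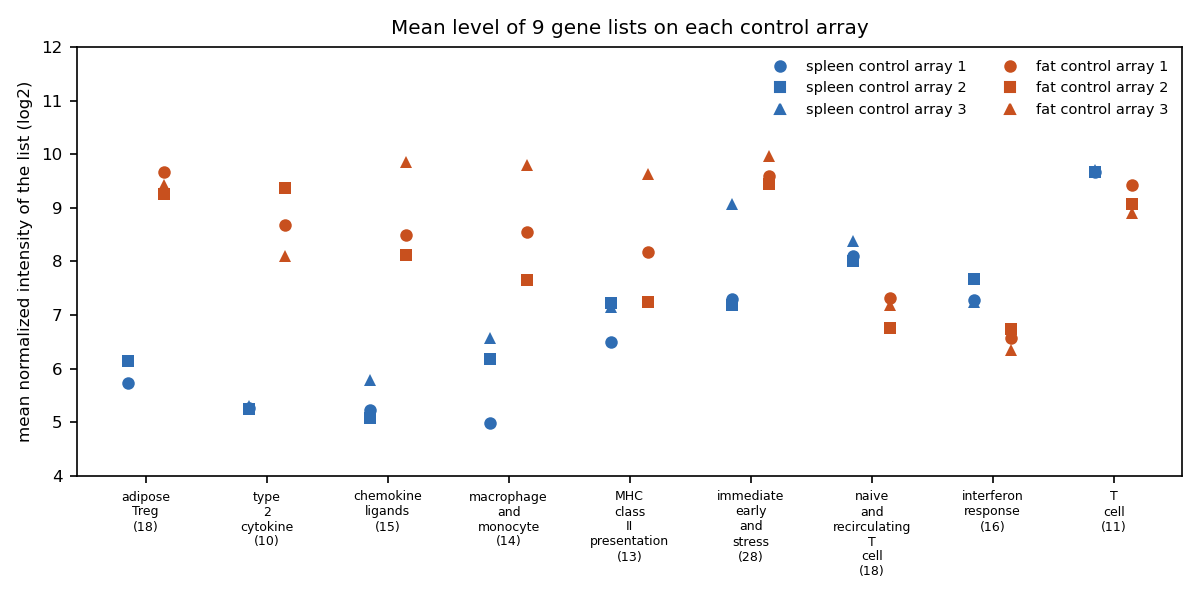
Mean normalized intensity (log2, vertical axis) of the measured members of 9 gene lists on each control array, with the number of members in brackets. The macrophage and MHC class II lists spread over the fat arrays with array 3 on top, the adipose Treg list is even across them, and the immediate early list is higher on spleen array 3 than on spleen arrays 1 and 2.

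Secreted growth and repair factors were higher, with 8 of 14 measured genes called higher, none lower and a median of +1.99. Of the 14, 2 were detected on no spleen array, which fixes the sign of their difference. Igf1, a growth factor that macrophages also make, read 4.74, 5.37 and 6.19 in spleen and 7.72, 9.18 and 9.41 in fat (+3.33, SE 0.53, limma adjusted p 0.00291). Pdgfa (+2.16, at least 3.04-fold), the progranulin gene Grn (+2.29), Tnfsf11, which encodes RANKL (+1.50), and Vegfa, the angiogenic factor (+2.32), rose besides Il10, Csf2 and Tgfb1. Of these, Igf1 kept its call in all 24 alternatives and Csf2 in the 21 that tested it. Another Igf1 probe differed by +0.63 and did not pass. Grn lost its call without spleen array 1 (0.0823) or fat array 3 (0.0512), Pdgfa without any 1 spleen array (0.0664 to 0.0927), Tnfsf11 without any 1 control array but fat array 3 (0.0815 to 0.123), and Vegfa, with another probe then read, without any 1 fat array (0.111 to 0.322). Of 20 genes of glycolysis and hypoxia 4 were called higher and none lower (median +0.46), and they were hypoxia-inducible genes and their regulator, not enzymes of glycolysis. They were Ndrg1 (+3.73), Egln3, a prolyl hydroxylase that marks HIF for degradation (+2.98), Vegfa and Hif1a. Another Egln3 probe differed by +1.00 and did not pass. Ndrg1 read 5.00, 5.84 and 5.24 in spleen and 9.64, 9.11 and 8.52 in fat, with every fat value above every spleen value. Of 6 measured genes of eicosanoids and histamine 3 rose: Hdc, the prostacyclin receptor Ptgir (+3.48, adjusted p 0.000765) and Alox5ap (+2.86, adjusted p 0.00112), which serves leukotriene synthesis. Of 12 iron and heme genes Cd163 and the transferrin gene Trf (+3.39) rose, and Trf lost its call without spleen array 1 (0.0807) or 3 (0.0563) or fat array 1 (0.0549).

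Immediate early and stress genes, which respond within minutes to stimulation or handling of cells, were higher in fat in part. Of 28 measured genes 5 were called higher and none lower, with a median of +1.62, and the 5 were Fosl2, Ier3, Atf3, Dusp5 and Gadd45b. Fosl2, an AP-1 subunit, read 4.76, 5.31 and 6.92 in spleen and 11.82, 11.68 and 11.09 in fat (+5.86, SE 0.68, limma adjusted p 0.000365). Atf3, a stress-induced transcription factor, read 4.44, 4.44 and 5.65 in spleen and 8.36, 9.12 and 9.08 in fat (+4.01, SE 0.51, adjusted p 0.000639). For both, spleen array 3 was the highest spleen array and still far below fat. For other members it reached the level of fat: Fosb read 5.03, 4.47 and 10.75 in spleen and 11.05, 11.17 and 10.93 in fat, and Fos 6.33, 5.19 and 11.30 in spleen and 9.40, 8.78 and 10.0035 in fat. Spleen array 3 was the highest spleen array for 22 of the 28 genes, against 36.9% of all genes tested, and the median difference was 1.89 and 1.84 on slides 1 and 2 and 0.34 on slide 3. Fosb (+4.30, adjusted p 0.138) and Klf4 (+4.49, adjusted p 0.0541) did not pass, and both passed without spleen array 3 (0.0206 and 0.00786). Klf4 also passed under 9 of the other processing settings. Dusp5 (+3.45), a phosphatase of ERK, lost its call without spleen array 1 (0.0875) or 2 (0.0816) or fat array 2 (0.0556), and Gadd45b (+3.43), a stress sensor, without spleen array 1 or 2 or fat array 2 or 3 (0.0865 to 0.139). The part that the preparation of the cells had in these values was not tested.

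Signalling genes downstream of such stimuli moved in part. The counts that follow stand beside 4.36% of all genes called higher and 3.42% called lower. Of 16 measured genes of NF-kappa-B 5 were called higher and none lower, with a median of +1.48. Here too spleen array 3 was the highest spleen array for 12 of the 16 genes, and the median was 1.57 and 1.77 on slides 1 and 2 and 0.30 on slide 3. Nfkb2, the precursor of the p52 subunit, read 6.66, 5.88 and 6.88 in spleen and 8.58, 8.86 and 9.20 in fat (+2.40, SE 0.43, limma adjusted p 0.00544), and it alone of the 5 kept its call in every alternative. Nfkbie (+2.81), an inhibitor of the pathway, lost its call without spleen array 1 (0.0714), and Bcl3 (+1.74), a co-activator, without spleen array 1 (0.0738) or 2 (0.0581). Malt1 (+1.92), a protease of T cell activation, lost its call with the slide as a block (0.0518) and without spleen array 1 or 2 or fat array 1 or 2 (0.0849 to 0.118), and Relb (+1.62), a subunit, with the block (0.0624) and without any 1 control array (0.0515 to 0.165). Among genes of G protein and cyclic AMP signalling 3 of 18 were called higher and 2 lower. Crem, a factor induced by cyclic AMP, read 4.81, 6.88 and 6.56 in spleen and 11.89, 11.91 and 11.27 in fat (+5.61, SE 0.62, adjusted p 0.000279), and its 2 other probes rose by 5.47 and 5.18. Rgs2 (+2.34) rose and Rgs3 (−2.39) fell, both dampers of G protein signals. Rgs2 lost its call without spleen array 1 (0.0842) or 2 (0.089) or fat array 1 (0.0708), Rgs3 without spleen array 1 (0.0821) or 2 (0.0755) or fat array 3 (0.0545), and 1 of the 2 other Rgs3 probes differed by +0.09. Pde4d (+1.92), which breaks down cyclic AMP, lost its call without any 1 control array but spleen array 2 (0.0675 to 0.174), and Rgs19 (−1.96) without any 1 control array (0.062 to 0.141). Of 21 cytokine receptors and SOCS genes 3 were called higher and none lower, among them Il10ra, a chain of the interleukin 10 receptor, with 7.14, 7.86 and 7.19 in spleen and 9.98, 9.43 and 9.88 in fat (+2.37, SE 0.37, adjusted p 0.00255). Ifngr1 (+2.52) lost its call without spleen array 1 (0.0855) or 3 (0.062) or fat array 1 (0.0584), and Socs2 (+1.59), a feedback inhibitor of cytokine signals, without spleen array 2 or 3 or fat array 1 or 2 (0.0868 to 0.123). Of 20 genes of the TNF superfamily Tnfsf11 was called higher and Lta lower, close to the shares over all genes. Of 20 genes of T cell receptor signalling none was called higher and 1 lower, the phosphatase gene Ptpn6 (−2.85, adjusted p 0.00654), with a median of −0.33.

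**Figure D4:**
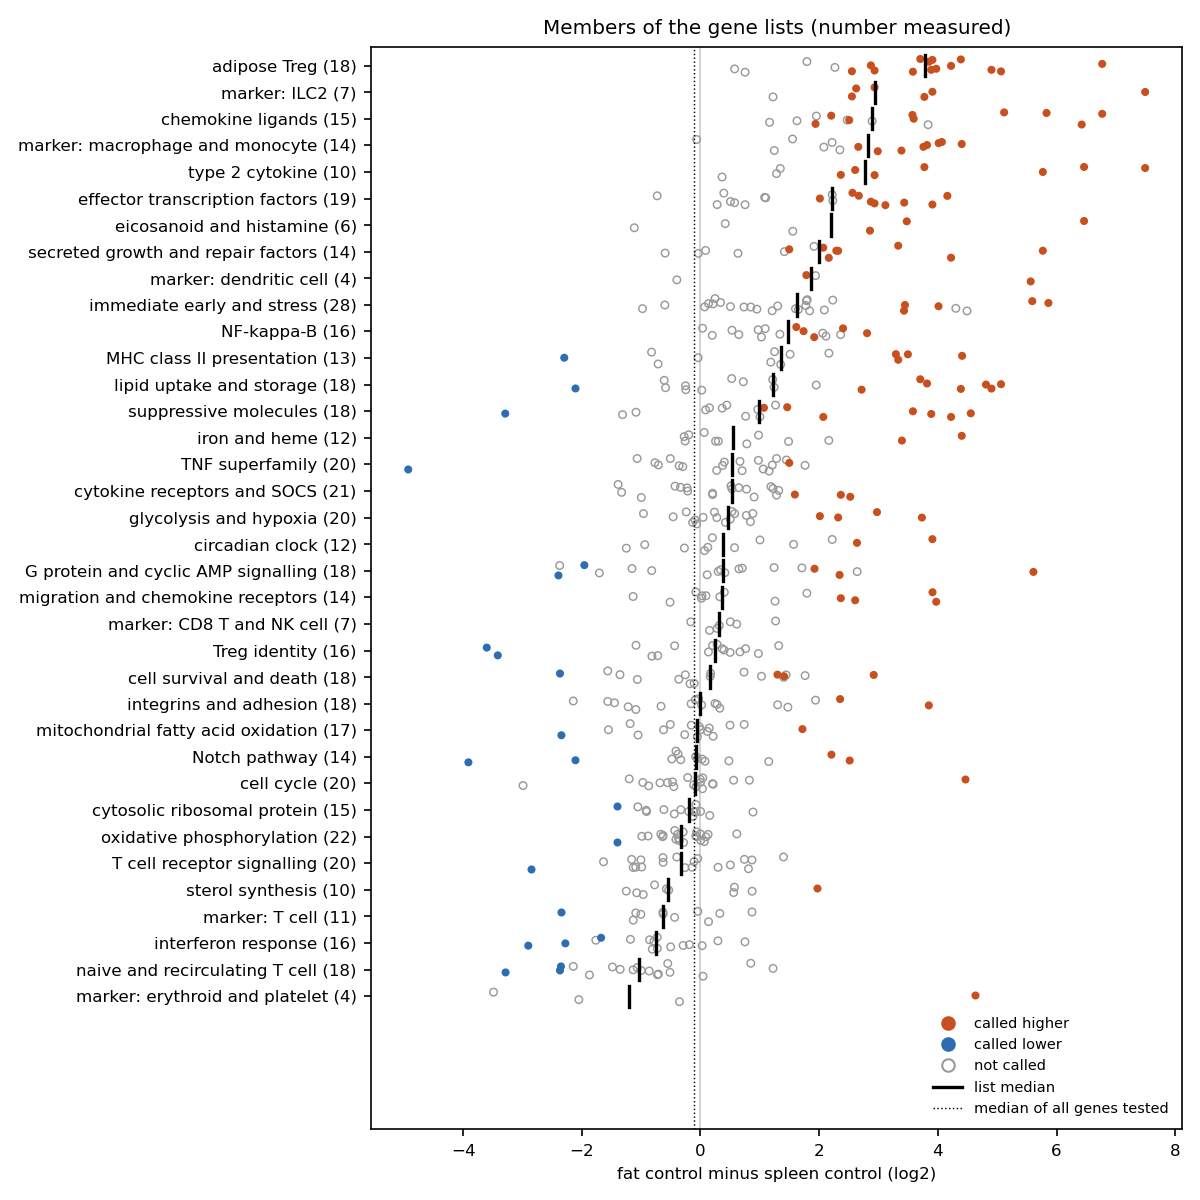
Difference between fat and spleen controls (horizontal axis, log2) of each measured member of the gene lists with at least 3 measured members, ordered by their median (black bars). Filled points passed the test, higher in orange and lower in blue, and the dotted line is the median of all genes tested at −0.11. The adipose Treg list has its median at +3.78 and the naive T cell list at −1.03.

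Genes of naive and recirculating T cells were lower in part, with 3 of 18 measured genes called lower, none higher and a median of −1.03. Lef1, which keeps T cells in the naive state, read 9.72, 9.58 and 9.52 in spleen and 6.75, 5.61 and 6.60 in fat (−3.28, SE 0.41, limma adjusted p 0.000614). Bcl2, a survival factor, read 10.02, 9.79 and 9.83 in spleen and 7.21, 7.40 and 7.93 in fat (−2.37, SE 0.53, adjusted p 0.0186). Both are even in spleen and lower on every fat array. Other Lef1 probes differed by −3.08, which passed, and by −1.51 and −1.35, which did not. The 7 other Bcl2 probes differed by −0.42 to −1.70, and only the one at −1.70 passed. Dapl1 read 5.87, 7.40 and 7.34 in spleen, was detected on no fat array and fell by at least 3.45-fold. Bcl2 lost its call without spleen array 1 (0.0744) or 2 (0.0562) or fat array 1 (0.0551) or 2 (0.0525), and Dapl1 without spleen array 2 when its own probe was kept (0.0559). Ccr7, which guides T cells into lymph nodes, read 9.57, 9.29 and 9.32 in spleen and 8.27, 8.26 and 8.25 in fat, without overlap, and did not pass (−1.13, adjusted p 0.0888), though it did with no background correction (0.0189), an offset of 50 (0.042) and the deposited normalized table (0.0231). Tcf7 was not analysed here. Among survival and death genes Bcl2 was the 1 of 18 called lower, while the related Bcl2l1, which encodes Bcl-xL (+2.92, adjusted p 0.00601), Bcl2a1d (+1.41) and Bcl2a1b (+1.30) were called higher. Bcl2l1 read 6.18, 7.23 and 5.05 in spleen and 9.23, 9.58 and 8.41 in fat, so 2 anti-apoptotic relatives moved in opposite directions. Bcl2a1b and Bcl2a1d are close copies, and a probe for either may read both. Bcl2a1d lost its call without spleen array 1 (0.0502), and Bcl2a1b without any 1 spleen array or fat array 2 (0.0507 to 0.0722).

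Interferon response genes were lower in part, with 3 of 16 measured genes called lower, none higher and a median of −0.76. Usp18, which restrains interferon signalling, read 8.70, 8.04 and 6.78 in spleen and 5.71, 4.40 and 4.71 in fat (−2.90, SE 0.49, limma adjusted p 0.00384) and kept its call in every alternative. Ifit2 (−2.28, adjusted p 0.0431) lost its call on leaving out any 1 control array (0.0571 to 0.14), and Gbp2 (−1.67, adjusted p 0.0498) on leaving out any 1 but fat array 3 (0.0973 to 0.153). With median scaling both calls were lost too (0.133 and 0.0817). Notch pathway genes split: Dtx1 and Notch1 were called lower, Rbpj and Jag1 higher, of 14 measured. Dtx1 read 8.86, 8.92 and 9.16 in spleen and 5.74, 4.53 and 4.93 in fat, whereas Rbpj, the DNA-binding partner of Notch, read 6.08, 6.35 and 5.88 in spleen and 8.65, 8.72 and 8.49 in fat (+2.51, SE 0.32, adjusted p 0.000667). The ligand gene Jag1 rose by 2.21 (at least 3.79-fold, adjusted p 0.0026), and Notch1 fell by 2.11 and lost its call without spleen array 1 (0.103) or 3 (0.0606) or fat array 2 (0.082).

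The counts of the next groups stand beside the 7.79% of all genes that were called. Of 22 genes of oxidative phosphorylation none was called higher and 1 lower, Uqcrc2 of complex III (−1.41, limma adjusted p 0.0173), with a median of −0.32. Of 15 cytosolic ribosomal protein genes 1 was called lower, Rpl22 (−1.41, adjusted p 0.0271), with a median of −0.20. With median scaling these medians were −0.03 and −0.32, and the calls of Uqcrc2 (0.123) and Rpl22 (0.0866) were lost. Of 20 cell cycle genes 1 was called, Cdkn1a, which encodes the cell cycle inhibitor p21, with 4.41, 4.37 and 6.12 in spleen and 8.67, 9.66 and 9.95 in fat (+4.46, SE 0.50, adjusted p 0.000295). The cell cycle list had a median of −0.09, which turned to +0.02 with median scaling. Of 10 sterol synthesis genes the regulator Srebf2 was called higher (+1.96, adjusted p 0.0472), and its call was lost on leaving out any 1 control array (0.0531 to 0.174). In all, Srebf2 lost its call in 20 of 24 alternatives. Of 12 clock genes the transcription factor Hlf rose (+2.64, at least 4.80-fold, adjusted p 0.00789) together with Rora, and lost its call in a fit of the 6 control arrays alone (0.0532). Of 18 integrin and adhesion genes Itgav and Emb (+2.35, adjusted p 0.00291) were called higher, with a median of −0.01 whose sign turned in 12 of 24 alternatives.

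Markers of other cell types that the isolated cells could hold were counted in the same way. Of 7 measured markers of CD8 T and NK cells none passed, and of 2 measured B cell markers none passed, while 7 others were below the detection filter and 4 of these, among them Ms4a1 and Pax5, were detected on no control array. Cd79b, 1 of the 2 measured B cell markers, passed as lower in 2 of 24 alternatives (lowest limma adjusted p 0.0279). Of 13 stromal and mesothelial markers 12 were below the detection filter and none was measured, 4 were detected on no control array and 6 only on fat arrays. Of 10 endothelial markers 2 were measured, and Cldn5 (8.25, 8.45 and 5.51 in fat against 4.56 to 5.34 in spleen) did not pass (adjusted p 0.195). Of 18 granulocyte and mast cell markers 2 were measured and 1, the mast cell protease Cpa3 (+1.80, at least 2.61-fold, adjusted p 0.0115), rose and lost its call without spleen array 1 (0.0513), while 10 of the 15 below the filter were detected only on fat arrays. Of 4 measured dendritic cell markers Clec10a and Cst3 (+1.78, adjusted p 0.0158) rose, and Cst3 lost its call without spleen array 2 (0.0506) or 3 (0.0566) or fat array 3 (0.0573). Of 4 erythroid and platelet markers Pf4, a platelet chemokine that macrophages also make, rose by 4.63 (adjusted p 0.00164) and was highest on fat array 3. Of 15 listed markers of type 2 innate lymphoid cells, which share much of this programme, 7 were measured. Of the 7 measured, 6 rose, and of these Il5, Il13, Gata3, Klrg1 and Rora are in the type 2 or adipose Treg lists as well. The other was Arg1, an arginase that macrophages also make (+2.62, adjusted p 0.0187), which lost its call without any 1 spleen array (0.053 to 0.0665). Of the 7 markers of type 2 innate lymphoid cells, 2 were detected on no spleen array, which fixes the sign of their difference. Another 5 were below the detection filter. Of these, 2, Ptgdr2 and Zbtb16, were detected on no control array and 1 only on fat arrays. The part of such cells in the rise of Il5, Il13 and Hdc was not tested.

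The same tissue contrast was open to a check in the other mice of the study, whose arrays are not among the 6. Tbx21 read 4.68, 5.72 and 4.71 in their spleen Tregs and 6.59, 7.54 and 4.93 in their fat Tregs. These values overlap those of the control arrays. Where the probe lies relative to the floxed part is not known here, so Tbx21 does not check the knockout label. In the libraries labelled T-bet knockout 586 of the 8798 genes were called (6.66%), 337 higher (3.83%) and 249 lower (2.83%) in fat. Of the 685 genes called in control mice 378 were called in the same direction there, which is 55.2% of the control calls and 64.5% of the knockout calls, and none was called in the opposite direction. Of the higher genes 259 (67.4%) were called again and of the lower genes 119 (39.5%). The median difference of the higher genes was +2.52 in controls and +2.23 in knockouts, and that of the lower genes was −2.02 and −1.40. The difference of the tissue contrast between genotypes passed for 0 genes in limma, with 343 genes at an unadjusted p below 0.05 and a lowest adjusted p of 0.322. Il5 rose by 6.86 in the knockouts, Csf2 by 5.18, Dgat1 by 4.65, Gata3 by 3.61 and Pparg by 3.99, while Lta fell by 4.15, Dtx1 by 4.06 and Lef1 by 3.82. Trim59 (−1.74, adjusted p 0.301), Vegfa (+1.25), Cpa3 (+0.29) and Gbp2 (+0.10) did not pass there. Acadm had the lowest p for a difference between genotypes among the called genes, with −2.34 in controls and +0.44 in knockouts (difference −2.79, SE 0.48, unadjusted p 7.87e-05, adjusted p 0.322). Because the genes were selected for passing in control mice, their smaller median in the knockouts is no test of a difference. The arrays of the 2 genotypes are separate but share slides, and the fit shares one estimate of the spread. The spleen control and spleen knockout arrays numbered 3 correlated at 0.947, so the 2 contrasts may not be independent.

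**Figure D5:**
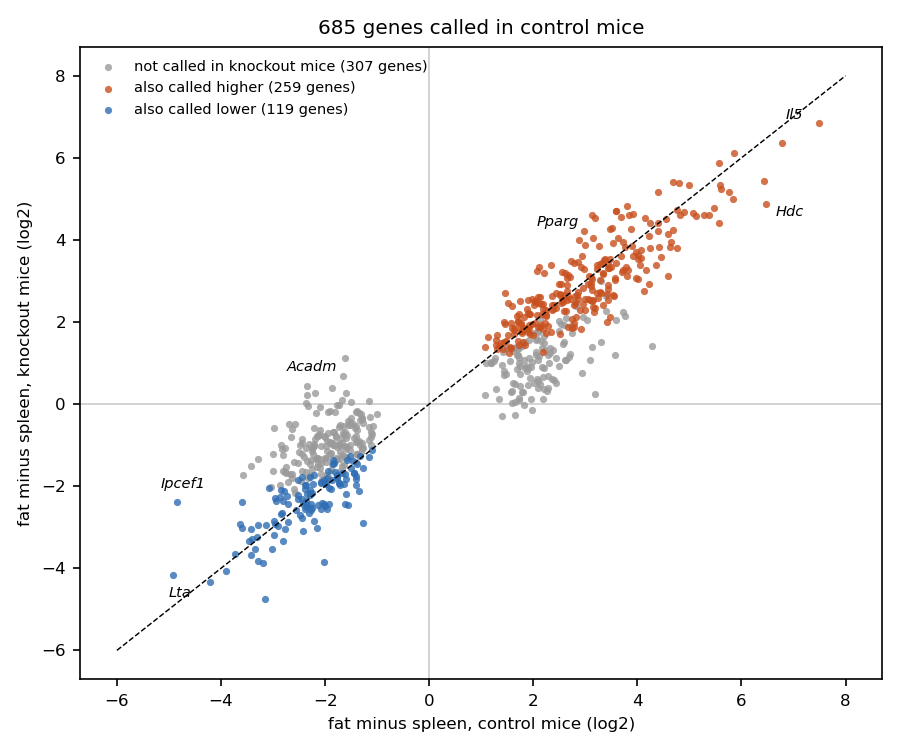
Fat minus spleen (log2) in knockout mice (vertical axis) against control mice (horizontal axis) for the 685 genes called in control mice, with the dashed line of equal values. The 259 genes called higher in both and the 119 called lower in both lie along the line, and 670 of the 685 have the same sign in both.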

How the data were processed

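Total RNA of isolated Tregs was amplified, labelled with biotin and hybridized to Illumina mouse bead arrays, 1 array per sample, 3 per group, with each replicate number on a slide of its own that held all 4 groups. The deposited table gives, per the file headers, a probe intensity that was not normalized (AVG_Signal) and a detection p-value for each array. The submitters' processing notes name GenomeStudio. No source used here gives its version or a genome build. The authors' normalized intensity table served as an alternative.

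From the deposited intensity, background was corrected with limma's nec (offset 16), all 12 arrays were quantile normalized, and log2 was taken. Probes with a detection p-value below 0.05 on at least 3 of the 6 control arrays were kept (17178 of 45281), and 8798 genes were read through the kept probe with the highest mean. Of the platform's probes 34885 have 1 symbol, 18 several and 10378 none. limma 3.58.1 (R 4.3.3) fitted 4 group means over 12 arrays, with Benjamini-Hochberg adjustment over all genes at 0.05, and the steps were tested on simulated data. A gene detected on no array of a group through any of its probes was given a lower bound of the fold. The bound is set against the lowest detected signal of each array there. The number of arrays limits the precision. Deviations of same-numbered spleen and fat control arrays correlated at 0.034, 0.011 and 0.145, so the numbers were not taken to pair these samples. Spleen control and spleen knockout arrays of the same number correlated across genes at 0.883, 0.913 and 0.947 for numbers 1, 2 and 3. Spleen control arrays correlated among themselves at 0.871 to 0.903. What the spleen arrays numbered 3 share was not tested.

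Genes named are the 15 largest rises and falls with the same sign on all 3 slides, without predicted or RIKEN symbols, up to 6 called members of each list with the largest change (for a list with no called member, the 2 lowest p-values), and Foxp3 and Tbx21. Genes named beside these, such as Id2, Ccl1, Plin3, Ctla4, Fos and Csf1r, were chosen after their values were seen. The 42 gene lists name 703 genes, 80 of them in several lists, and 484 could be measured. The lists and the comparison were chosen with earlier results of these data known. The alternatives were other scalings, offsets, filters and probe rules, the deposited normalized table, a fit of the 6 control arrays alone, the slide as a block, limma's trend and robust options, and each array left out.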

Additional observations from a re-analysis of the deposited data

How the results depend on the processing

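Without spleen array 1 the 685 calls became 295 (207 higher, 88 lower), without spleen array 2 they became 347 (240 higher, 107 lower), and over the 6 arrays the counts ran from 295 to 529, with 207 to 326 higher and 88 to 270 lower. The lower calls were 183 without spleen array 3, 184 without fat array 2 and 200 without fat array 3. With the probes kept as with all 6 arrays, an alternative chosen after seeing the data, the counts ran from 325 to 598, with 213 to 341 higher and 112 to 275 lower, and without spleen array 2 they were 372 (241 higher, 131 lower). In the knockouts the 586 calls became 311 without spleen array 1 and 318 without spleen array 2, and ran from 311 to 635 over all arrays left out. A fit of the 6 control arrays alone called 429 genes, 171 of them lower. Lower calls numbered 197 with cyclic loess, 147 with median scaling and 199 with no filter on dim probes. With the slide as a replicate block, 676 genes were called (393 higher, 283 lower), of which 598 were among the 685. The block took the calls of Osbpl5, Malt1, Relb, Rgs19, Etfdh, Gbp2, H2-Ob, Plin3 and Lgals1 and gave one to Klf4. The median of all genes moved from −0.11 to −0.0014 with cyclic loess and to +0.02 with median scaling, so the split between higher and lower depends on the scaling. The difference between genotypes passed for 0 genes under the alternatives that could give it, which leaves out the fit of the 6 control arrays alone.

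Of 130 named calls 73 held under all alternatives that tested them (24 in all), 57 were lost under at least 1, and 0 changed sign. With no filter on dim probes 35 were lost, and with the 6 control arrays alone 33. Median scaling and no background correction each lost 13, and the deposited normalized table lost 9. Where a gene's lost calls are given above for arrays left out, such settings may have taken its call too. The genes that changed sign had not passed: Foxp3 was −0.059 with the mean of its probes, Klrb1c −0.25 without fat array 3 (up to 1.06 without others), Cd79b 0.082 without fat array 1 (down to −1.92), Fcer2a 0.060 with median scaling, 0.043 without spleen array 3 and 0.13 without fat array 3 (down to −0.60), and Batf −0.26 without spleen array 3 (up to 1.27). Of 984 list medians under alternatives 109 moved by more than the spread between replicates. Probes near background give bounds, not levels.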
